A study of Homo sapiens with 38 samples.

Results

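Collagen chains, laminin chains and a set of enzymes and partner proteins of the extracellular matrix were followed across 38 microarrays of human cancer cell lines under glucose stress. The genes were chosen by symbol: every measured COL gene with a chain number, every LAMA, LAMB or LAMC gene, and P4HA2, P4HA3, PLOD1 to PLOD3, SERPINH1, LOX, LOXL1 to LOXL4, NID1, NID2, HSPG2, FN1 and SPARC. The rule gave 69 of the 19775 genes that had a probe set of 1 symbol, namely 43 collagen chains, 10 laminin chains and 16 enzymes and other matrix proteins. Each gene was read from 1 probe set, the one with the highest mean signal. Of the 69 genes, 36 passed a filter on low signals (15 collagen chains, 7 laminin chains and 14 others), beside 11456 genes in all.

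HT-1080 is a fibrosarcoma line and HT-29 a colorectal adenocarcinoma line, and each was also used as a rho0 derivative, which lacks mitochondrial DNA. The study addressed how mitochondria shape the unfolded protein response of the endoplasmic reticulum when glucose is short. Untreated controls came from HT-1080 (6 arrays), HT-1080(rho0) (2), HT-29 (3) and HT-29(rho0) (1). The stresses were 2-deoxyglucose (2DG), glucose starvation (GS) and tunicamycin (TM), an inhibitor of N-linked glycosylation. Parental HT-1080 received 2DG (3 arrays), GS (2) or TM (1), and parental HT-29 received GS (3). HT-1080(rho0) received 2DG, GS or TM and HT-29(rho0) received GS, on 1 array each. Inhibitors of respiration were added on single arrays of HT-1080: metformin (Met, 10 mM), buformin (Bu, 300 µM), phenformin (Phen, 100 µM), rotenone (Rot, 100 nM) and antimycin A (AA, 10 ng/ml) with 2DG, and rotenone and antimycin A with GS and with TM. Versipelostatin (VST, 3 µM) was added to 2DG in HT-1080 and to GS in both lines. Exposure lasted 18 h, or 14 h for HT-29(rho0) with GS and for the third HT-29 array with GS. The arrays HT-1080(rho0) with GS, GS with AA and the second of both arrays for GS with Rot included floating cells. The labels give no dose for 2DG or TM, and they do not say whether each rho0 derivative is 1 clone.

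Collagens are triple helices of chains that are hydroxylated and folded in the endoplasmic reticulum. P4HA2 and PLOD enzymes hydroxylate proline and lysine there, SERPINH1 (HSP47) is the chaperone of the triple helix, and the lysyl oxidases LOX and LOXL cross-link collagen outside the cell. Type IV collagen, laminins, nidogen and perlecan build basement membranes, which carry epithelia, while type VI collagen forms beaded filaments around cells.

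Epithelial markers went with the labels of the lines, and mesenchymal markers did so in part. Of 11 mesenchymal markers, 6 (VIM, CDH2, ZEB1, TWIST1, SNAI2 and ACTA2) were above the signal floor of 45.5 on average in HT-1080 and 2 (S100A4 and TAGLN) in HT-29. The summed mesenchymal signal overlapped, at 9698 to 18838 on the HT-1080 arrays and 6006 to 11046 on the HT-29 arrays. S100A4 was higher in the HT-29 controls (HT-1080 minus HT-29, -8.27 on the log2 scale). Of 16 colon epithelial markers, 12 were above it in HT-29, EPCAM, CDH1, VIL1 and KRT20 among them, and 2 (KRT8 and KRT18) in HT-1080, and the summed signal of that list was 2086 to 4092 on the HT-1080 arrays and 28103 to 42997 on the HT-29 arrays. Of 6 endothelial markers, 1 (TIE1) was above the floor in HT-1080 and none in HT-29, and of 4 measured immune markers none was in either line. Transcripts of mitochondrial DNA averaged between 197 and 10961 in the parental controls and between 0.21 and 7.37 in the rho0 controls. The stress marker HSPA5 (BiP) was higher than its own control on all 26 treated arrays, by 0.24 to 1.75 on the log2 scale, and DDIT3 (CHOP) differed by between -0.23 and 6.71.

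The values are MAS5 signals, scaled here so that every array had the same trimmed mean of 113.7 over all probe sets. Differences are on the scale of log2(signal + 5.69), which understates the change of dim genes, and are given ± the standard error of the limma fit. Each treated array was set against the control array that its description names. A gene is said to rise or fall where the Benjamini-Hochberg adjusted p over all 11456 genes was under 0.05. A group with 1 array borrows its spread from the groups with several, and the number of arrays limits the precision. The labels do not say whether replicates were grown separately, so each p-value covers the scatter among these arrays, which may be technical. Signals are not compared between genes, since each probe set has its own response.

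Most collagen and laminin genes were at or near background. Of the 33 genes that did not pass, 31 were under the floor on every one of the 38 arrays, COL3A1 and COL1A2, chains of the main fibrillar collagens, among them. The 2 exceptions, COL9A3 at 197 and COL5A2 at 75.8, passed the floor on 1 array, the untreated HT-29(rho0) culture. Among the 36 genes that passed, 15 were under the floor on all 9 HT-29 arrays and 2 (COL18A1 and LOXL4) on all 29 HT-1080 arrays. Only COL4A2, LAMB1, LAMB3, LAMC1, P4HA2, PLOD1, PLOD2, PLOD3 and SERPINH1 were above it on all 38 arrays.

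The matrix genes of the untreated fibrosarcoma line were mostly brighter than those of the untreated colon line. Between the 6 HT-1080 and the 3 HT-29 controls, 25 of the 36 genes were higher in HT-1080 and 5 were higher in HT-29. The background was 59.8% of all genes called (32.4% higher in HT-1080, 27.4% lower), with a median difference of 0.06 over all genes and 1.18 over the 36. Because 15 genes had entered through HT-1080 alone, this count is a description and not evidence of a shift. In bulk RNA, fewer expressing cells and less RNA per cell cannot be told apart.

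SPARC, a secreted collagen-binding glycoprotein, was bright in HT-1080 and under the floor in HT-29. Its scaled signal in HT-1080 was 2272 at the lowest, 2425 at the median and 2639 at the highest of 6 controls, and in HT-29 it was 1.55, 2.16 and 0.806. SPARC had passed the filter through HT-1080 alone, so no p-value is given for this difference. All HT-29 values lay under the floor, so the ratio is a bound. The HT-1080 mean of 2455 ± 135 (SD, n = 6) was at least 53.9-fold above the floor. The same calculation gave at least 33.1-fold for COL13A1, a transmembrane collagen, 23.9-fold for COL6A3, 21.2-fold for the lysyl oxidase LOXL2, 5.21-fold for COL6A1 and 4.27-fold for LOX. LAMB3 and COL4A2 were above the floor in both lines and differed too. LAMB3, the beta chain of the epithelial laminin-332, was 3425 ± 437 (SD, n = 6) in HT-1080 and 226 ± 126 (SD, n = 3) in HT-29, a fitted difference of 4.01 ± 0.23 (adjusted p = 1.83e-09), and no array of one line reached the other. COL4A2 was 1311 ± 209 (SD, n = 6) against 223 ± 61.1 (SD, n = 3) and differed by 2.55 ± 0.17. COL4A1, at 1010 ± 201 (SD, n = 6), differed by 4.89 ± 0.32 from HT-29, where 2 of its 3 values (25.5, 11.2 and 65.9) were under the floor. FN1 (fibronectin) was 2.92 ± 0.67 higher in HT-1080, where its 6 controls ran from 79.6 to 741, and 1 of its 3 HT-29 values was under the floor.

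Of the hydroxylases inside the secretory pathway, P4HA2 was 0.64 ± 0.17 higher in HT-1080 and PLOD2 1.15 ± 0.31 higher, while PLOD1 and PLOD3 differed by 0.30 and 0.09 without passing the test (adjusted p = 0.122 and 0.687). LAMC1 and LAMB1, chains shared by many laminins, were 1.00 ± 0.18 and 0.54 ± 0.20 higher, and for LAMB1 the arrays of both lines overlapped. The genes higher in HT-29 were HSPG2 (perlecan), LAMA5, COL18A1, LOXL4 and SERPINH1. In the direction HT-1080 minus HT-29, LAMA5 stood at -2.14 ± 0.37 and SERPINH1 at -0.52 ± 0.19. HSPG2 and COL18A1 were under the floor on all HT-1080 controls, so their ratios are bounds, at least 1.87-fold and 1.20-fold higher in HT-29. LOXL4 was also under the floor there and its groups overlapped, and its call was lost with a smaller offset, with no filter and with no intensity trend (adjusted p = 0.0533, 0.065 and 0.0532). HSPG2 was 47.4, 113 and 115 in the HT-29 controls and 2.11 at the lowest, 3.99 at the median and 15.6 at the highest in HT-1080, so the groups did not overlap. SERPINH1 ran from 390 to 653 in HT-1080 and from 507 to 919 in HT-29, so those groups did. COL1A1 did not pass the test (-0.23 ± 0.23, adjusted p = 0.409), and the mean over its 5 probe sets instead gave 0.72 (adjusted p = 0.0104).

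**Figure D1:**
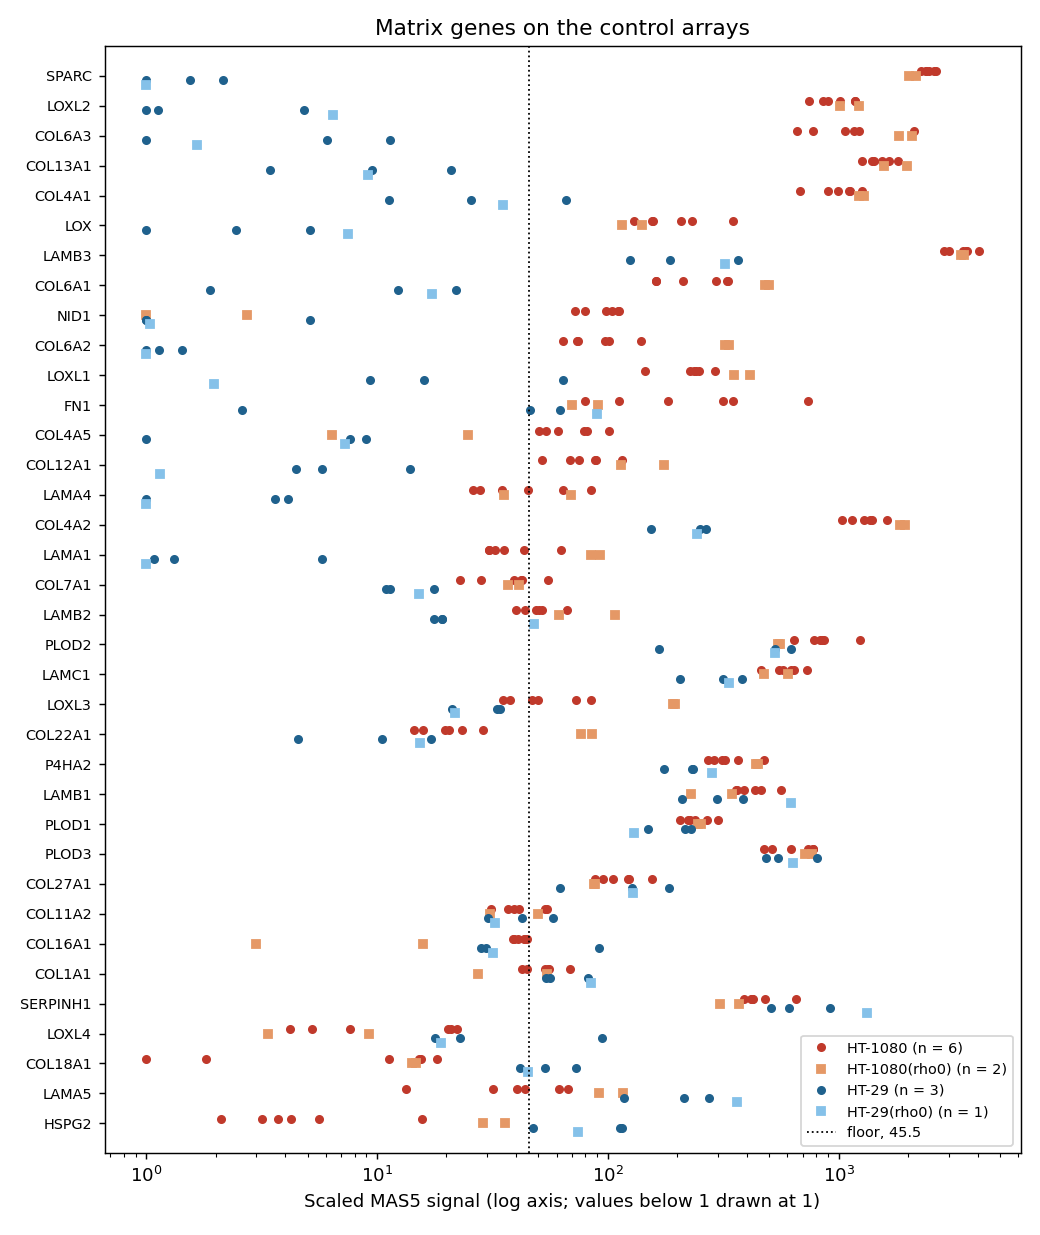
Scaled MAS5 signal (log axis) of the 36 matrix genes that passed the filter, 1 mark per untreated array, for HT-1080 (n = 6), HT-1080(rho0) (n = 2), HT-29 (n = 3) and HT-29(rho0) (n = 1); the dotted line is the floor of 45.5 and genes are ordered by the difference between the parental lines. The HT-29 marks of SPARC, LOXL2, COL6A3, COL13A1, LOX and COL6A1 lie under the floor, and the order ends with LAMA5 and HSPG2, whose HT-29 marks lie to the right of the HT-1080 marks.

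Other matrix genes were counted from lists, beside the 59.8% of all genes called between the lines (32.4% higher in HT-1080, 27.4% lower). Of 18 measured genes of collagen biosynthesis outside the rule, 8 were higher and 4 lower in HT-1080. The rises were led by P3H3 (2.44), FKBP10 (1.90), P3H4 (1.77) and CRTAP (1.73), which take part in collagen modification and folding. Of 16 matrix receptors, 9 were higher (DDR2, a collagen receptor kinase, by 3.92) and 2 lower (ITGB4, the laminin receptor subunit of hemidesmosomes, by 5.04 in HT-29's favour, or -5.04). Of 19 proteases and inhibitors, 11 were higher, with PLAU at 6.86 and MMP1 at 5.43, and 6 lower, with MMP7 at -4.54. Of 19 other matrix genes, 14 were higher and 2 lower.

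The sequences of 3 promoters are shown because the results below turn on those genes. COL4A1 and COL4A2 encode the chains that join in the common type IV collagen protomer. They lie head to head on chromosome 13 (RefSeq, GRCh38.p14: COL4A1 at chr13:110148963-110307157, minus strand, and COL4A2 at chr13:110307284-110513209, plus strand). Their annotated starts are 127 bases apart, so the promoter windows of 300 bases (250 before the start and 50 from it) overlap by 226 bases. Capitals mark each CCAAT box (the letters CCAAT) and each GC box (the letters GGGCGG), on either strand.
COL4A1, chr13:110307108-110307407, minus strand: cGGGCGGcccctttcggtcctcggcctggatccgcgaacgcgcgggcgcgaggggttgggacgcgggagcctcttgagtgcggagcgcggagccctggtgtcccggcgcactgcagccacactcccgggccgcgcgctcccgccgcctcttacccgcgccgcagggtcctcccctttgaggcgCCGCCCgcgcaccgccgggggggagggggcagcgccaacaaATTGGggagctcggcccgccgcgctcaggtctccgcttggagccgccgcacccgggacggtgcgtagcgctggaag
COL4A2, chr13:110307034-110307333, plus strand: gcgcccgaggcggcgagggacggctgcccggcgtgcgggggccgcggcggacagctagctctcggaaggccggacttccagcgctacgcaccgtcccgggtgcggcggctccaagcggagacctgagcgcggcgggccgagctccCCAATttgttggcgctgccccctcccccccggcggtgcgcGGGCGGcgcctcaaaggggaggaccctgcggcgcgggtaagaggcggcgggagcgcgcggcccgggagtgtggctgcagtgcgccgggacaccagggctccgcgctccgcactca
Of 27305 RefSeq promoters of the same length, 35.7% hold a CCAAT and 44.6% a GGGCGG. In SERPINH1 (chr11:75562253-75572783, plus strand), the chaperone gene, capitals mark the only heat shock element, GAANNTTCNNGAA, found in any of the 53 matrix genes with a promoter entry. It lies on the minus strand at positions -76 to -64 from the start, and 0.487% of all promoters hold one.
SERPINH1, chr11:75562003-75562302, plus strand: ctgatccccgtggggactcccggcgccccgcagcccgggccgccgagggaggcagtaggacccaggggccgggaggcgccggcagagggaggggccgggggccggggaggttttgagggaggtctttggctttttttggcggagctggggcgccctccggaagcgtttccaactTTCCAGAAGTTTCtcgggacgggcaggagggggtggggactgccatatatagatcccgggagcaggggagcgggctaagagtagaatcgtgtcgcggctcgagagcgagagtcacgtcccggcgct
Of 9 motifs searched on both strands, 5 were in none of the 31 filtered genes with a promoter entry: the ER stress element (in 0.0806% of all promoters), the ER stress element II (0.0549%), TGACGTG (2%), TGATGNAA (3.67%) and TGANTCA (7.76%). Both ER stress elements contain the CCAAT box, and TATAAA was in 3 of the 31 and in 12% of all promoters. A match is a description of letters and not of a bound site.

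Loss of mitochondrial DNA went with a changed set of matrix genes in untreated HT-1080. In the rho0 controls (2 arrays, against 6 parental), 5 of the 36 genes were higher and 3 lower, beside 13.1% of all genes called (6.15% higher, 6.95% lower). The median was 0.19 over the 36 genes and 0.02 over all genes. NID1 (nidogen, a linker of laminin and type IV collagen) fell, with an adjusted p of 1.37e-05 for the fitted difference. It was 71.9 at the lowest, 101 at the median and 112 at the highest in parental controls and 2.74 and 0.34 in rho0 controls. Since both rho0 values were under the floor, the ratio is a bound, and NID1 was at least 2.08-fold lower. Its signal was also under the floor on the HT-1080(rho0) arrays with 2DG, GS and TM, at 5.56, 1.23 and 8.54. COL4A5 was at least 1.52-fold lower, also under the floor on both rho0 arrays. COL16A1 was called lower with every one of these 8 arrays under the floor.

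Genes that rose in the rho0 controls came from several families. COL6A2 was 322 and 334 in rho0 and 63.9 to 139 in parental controls (1.82 ± 0.27, adjusted p = 0.000898). LOXL3 rose by 1.79 ± 0.30, and COL22A1 was at least 1.77-fold higher, since all parental values were under the floor. LAMA1 rose by 1.11 ± 0.33, a call lost with a smaller offset, with no filter and in the deposited scale (adjusted p = 0.0817, 0.0754 and 0.0636), and HSPG2 was called higher with all 8 arrays under the floor. Of the remaining genes fixed for naming, COL1A1, COL4A1, COL4A2, COL6A1, LAMB1, LAMC1, FN1, SPARC, SERPINH1, P4HA2, PLOD2 and LOX, none passed, with differences from -1.45 (FN1, adjusted p = 0.243) to 1.03 (COL6A1, adjusted p = 0.107). HT-29(rho0) had 1 control array, with LAMB1 at 624 (HT-29 controls 210 to 385) and SERPINH1 at 1331 (507 to 919), and no test was made there. Without either rho0 control, 4 genes passed, and COL6A2, LOXL3 and NID1 passed whichever of the 8 arrays was left out. With the deposited scaling the split was 4 higher and 4 lower. Of the other lists, FBN1 fell (-2.38) and THBS2 (2.15), LTBP3 (2.43), MMP9 (2.29), ITGB3 (2.12) and ADAMTS2 (2.44) rose.

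With 2DG, HT-1080 raised a small set of laminin, cross-linking and hydroxylase genes. Of the 36 genes, 8 rose and 1 fell, beside 8.27% of all genes called (4.9% higher, 3.37% lower), with medians of 0.12 over the 36 and 0.02 over all. LOX, the founding lysyl oxidase, was 157, 155 and 208 in the 3 controls named for these arrays and 450, 853 and 660 with 2DG. The rise was 1.85 ± 0.26, or 3.59-fold (adjusted p = 0.00265). The other 2 LOX probe sets gave 1.44 and 1.43. LAMB3 went from 2853, 3617 and 3446 to 6353, 8912 and 9933, a rise of 1.33 ± 0.19 (2.51-fold, adjusted p = 0.00304). For both genes every treated value lay above all 6 HT-1080 controls.

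Chains and enzymes followed with smaller rises. LAMA5, the alpha chain of laminin-511, rose by 1.27 ± 0.23 and LAMB1 by 0.61 ± 0.14. COL6A3, the long chain of type VI collagen, rose by 1.23 ± 0.30 with values of 2194, 2221 and 2931 against 1224, 772 and 1165 in their own controls. The control of another set of arrays reached 2115, close to the lowest treated value, and the COL6A3 call was lost with a smaller offset and with no intensity trend (adjusted p = 0.127 and 0.0813). P4HA2 rose by 0.96 ± 0.19, but the mean of all its probe sets gave 0.48 and did not pass (adjusted p = 0.103). PLOD2, the telopeptide lysyl hydroxylase, rose by 0.73 ± 0.15 (0.73 in its second probe set as well). A control outside this set reached 1239 for PLOD2, against a 2DG mean of 1385. The PLOD2 and LAMB1 calls were lost with no intensity trend (adjusted p = 0.0553 and 0.0503). They were also lost without the own control as a block (0.283 and 0.151). COL18A1 passed with all 6 arrays under the floor, and its call was lost under 5 alternatives besides leaving out arrays (adjusted p from 0.0671 to 0.502). SPARC fell, from 2272, 2639 and 2387 to 1479, 1581 and 1598 (-0.64 ± 0.12, adjusted p = 0.00997), with no overlap, and its second probe set stood at -1.80.

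The type IV chains and the chaperone did not pass with 2DG alone. COL4A1 differed by 0.08 ± 0.31 (adjusted p = 0.905), COL4A2 by 0.15 ± 0.24 (0.743), SERPINH1 by 0.23 ± 0.22 (0.562), COL6A1 by -0.17 ± 0.33 (0.797), COL1A1 by -0.36 ± 0.25 (0.419) and FN1 by 0.44 ± 0.25 (0.292). LAMC1 differed by 0.03 ± 0.15 in the probe set used (adjusted p = 0.93) and by 0.78 in its other one. Among genes of collagen biosynthesis outside the rule, 4 of 18 rose and none fell: MIA3 (TANGO1, collagen export) by 1.29, P4HB (protein disulfide isomerase, the beta subunit of prolyl 4-hydroxylase) by 1.20, P4HA1 by 0.77 and PPIB by 0.66. Of 19 proteases and inhibitors, 6 rose and none fell, with MMP3 at 2.22 and MMP1 at 1.98, of 16 receptors 2 rose (DDR2, 0.95, and ITGB5, 0.63) and SDC1 fell (-1.19), and of 19 other matrix genes 2 rose and 2 fell. HSPA5 was 1.28, 1.36 and 1.28 above its controls on these arrays, and DDIT3 4.22, 3.13 and 0.85.

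The 2DG calls rested on few arrays. With any of the 3 2DG arrays or their controls left out, 2 or 3 genes passed (3 without the first 2DG array or its control, 2 without any of the other 4 arrays), and LOX and LAMB3 passed in all 6 of these fits. A fit on HT-1080 arrays alone called 15 genes, 12 higher and 3 lower.

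GS in HT-1080 moved part of the same kinds of gene. Of the 36 genes, 4 rose and 1 fell, beside 9.45% of all genes called (4.36% higher, 5.1% lower), with medians of 0.00 and -0.02. LOX was 517 and 565 against 130 and 232 in its own controls (1.61 ± 0.32, adjusted p = 0.0124), with no overlap. LAMB3 was 6050 and 7989 against 3011 and 4055 (0.99 ± 0.23, adjusted p = 0.0239), again with no overlap. PLOD2 rose by 0.89 ± 0.19 (adjusted p = 0.0163). With no intensity trend the LAMB3 and PLOD2 calls were lost (adjusted p = 0.0836 and 0.0555). The PLOD2 call was also lost without the own control as a block (0.347). LAMA1 went from 30.6 and 30.4, under the floor, to 66.3 and 78.7, at least 1.59-fold higher. Its fitted difference had an adjusted p of 0.0496, and the call was lost under 5 alternatives besides leaving out arrays (adjusted p from 0.0524 to 0.118).

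SPARC fell with GS as well, from 2391 and 2459 to 1517 and 1306 (-0.78 ± 0.15, adjusted p = 0.0111). COL4A1 (-0.16), COL4A2 (0.11), COL1A1 (0.11), COL6A1 (-0.41), LAMB1 (0.16), LAMC1 (0.03), FN1 (0.26), P4HA2 (0.08) and SERPINH1 (0.68 ± 0.27) did not pass, with adjusted p from 0.138 (SERPINH1) to 0.949 (LAMC1). Of the lists, P4HB (0.98), P4HA1 (0.93) and PPIB (0.63) rose among 18 biosynthesis genes and none fell, and MMP3 (2.02), DDR2 (1.28) and TNC (1.17) rose while SDC1 (-1.51), PLAU (-1.11) and FSTL1 (-1.02) fell. Without either GS array or either of their controls, no gene of the 36 passed. Without the own control as a block, or without the intensity trend, 3 did. GS and 2DG were compared with different HT-1080 controls.

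In HT-29, GS raised LAMB3 and FN1 most clearly. Of the 36 genes, 4 rose and 4 fell, beside 27.1% of all genes called (11.6% higher, 15.5% lower), a share above that of the 36, with medians of 0.14 and -0.04. LAMB3 was 187, 367 and 125 in the controls and 1244, 937 and 472 with GS (1.97 ± 0.19, 3.91-fold, adjusted p = 0.000227), with no overlap. FN1 was 46.1, 2.59 and 62.1 and became 122, 21.0 and 125 (1.31 ± 0.25, adjusted p = 0.00393). Each array was above its own control, while the groups overlapped. COL16A1 rose by 1.11 ± 0.33, from 29.6, 91.3 and 28.3 to 92.7, 154 and 68.4, again with overlap.

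The falls in HT-29 were in dim or modest genes. COL27A1, a fibrillar collagen, was 127, 62.0 and 183 and became 78.6, 39.2 and 138 (-0.55 ± 0.17, adjusted p = 0.0347). LOXL1 (-0.86 ± 0.23) was above the floor on 1 of its 6 arrays. COL6A2 (1.02), COL13A1 (-0.82) and COL12A1 (-0.69) passed with all 6 arrays under the floor. For COL13A1 another probe set gave 0.72, and for COL12A1 the mean of all probe sets gave 0.12. Those signs are therefore not settled. COL1A1, COL4A1, COL4A2, COL6A1, LAMB1, LAMC1, SPARC, SERPINH1, P4HA2, PLOD2 and LOX did not pass, with differences from -0.62 (COL4A2, adjusted p = 0.0698) to 0.51 (SERPINH1, adjusted p = 0.107).

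Of the HT-29 lists, SEC24D (2.50) and FKBP14 (2.04) led 5 rises and P3H4 (-1.10) led 2 falls among 18 biosynthesis genes. CCN2 (3.22) and CCN1 (2.37) led 3 rises among 19 other matrix genes, and among 16 receptors 3 rose and 2 fell. Without the third GS array, exposed for 14 h, or its control, 13 of the 36 genes passed. Without the first array or its control 4 passed, and without the second or its control 3 did. LAMB3, FN1 and COL13A1 passed in all 6 fits. Without the block by own control, COL6A2 and LAMB3 alone of the 8 passed, and FN1 had an adjusted p of 0.365.

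The GS response was not shown to differ between the lines for any of the 36 genes. In the test of the difference, 0 passed by limma, 9 had an unadjusted p under 0.05, and 65 of all genes passed (0.567%). The smallest adjusted p was that of SPARC (-0.82 ± 0.19, adjusted p = 0.0978), followed by PLOD2 (1.01 ± 0.24, adjusted p = 0.1). LOX differed by 1.47 ± 0.41 (adjusted p = 0.155), LAMB3 by -0.98 ± 0.30 (0.194) and FN1 by -1.05 ± 0.39 (0.264). Without the third HT-29 GS array or its control 5 genes passed, and without the first or second 1 did. CCN1 and CCN2, outside the rule, passed at -2.51 and -3.10.

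**Figure D2:**
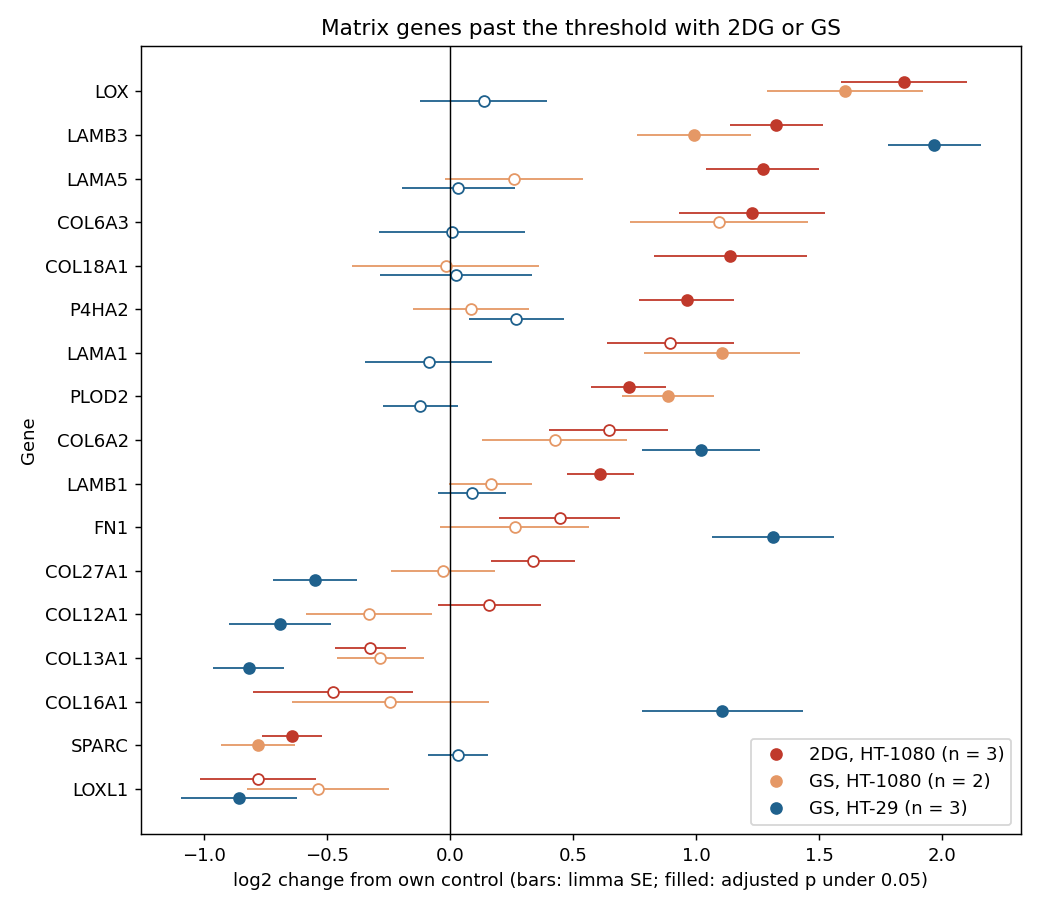
log2 change from own control, with limma standard errors, of the 17 matrix genes that passed with 2DG in HT-1080 (n = 3), GS in HT-1080 (n = 2) or GS in HT-29 (n = 3); filled marks have an adjusted p under 0.05. LAMB3 is filled in all 3 groups at 1.33, 0.99 and 1.97, LOX in both HT-1080 groups at 1.85 and 1.61, and SPARC in both HT-1080 groups at -0.64 and -0.78.

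TM, on 1 array, passed the test for no gene. Of the 36 genes 0 passed by limma, against 0% of all genes, with 2 of the 36 and 686 of all genes at an unadjusted p under 0.05. LAMB3 was 8768 against 4055 in its own control (1.12 ± 0.31, adjusted p = 0.399) and SPARC 1523 against 2459 (-0.63 ± 0.20, adjusted p = 0.559). LOX was 370 against 232 (0.83 ± 0.42) and SERPINH1 583 against 418 (0.60 ± 0.36), and COL4A1 differed by -0.09 ± 0.51. The fitted value also draws on the GS arrays that share this control. On the TM array HSPA5 was 1.34 and DDIT3 0.62 above control. The fit on HT-1080 arrays alone called 2 of the 36.

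With respiratory inhibitors added to 2DG, many matrix genes were lower than with 2DG alone, led by the type IV collagen pair. Relative to 2DG alone, 18 of the 36 genes were lower and 2 higher over the 5 inhibitor arrays, beside 35% of all genes called (22.1% lower, 12.9% higher). The median was -0.49 over the 36 genes and -0.12 over all. This comparison and the one of 2DG with control share the 2DG arrays, so a fall from 2DG need not be a fall from control. Changes from own control are therefore also given below for several genes. Each inhibitor also had its own dose, and Met, Bu and Phen shared 1 control array that no 2DG array shared. That control was the highest of the 6 HT-1080 controls for several genes. It was 350 for LOX (others 130 to 232), 2115 for COL6A3 (663 to 1224), 1239 for PLOD2 (641 to 865) and 477 for P4HA2 (271 to 366). For these genes the biguanide changes from own control are therefore lower than they would be from any other HT-1080 control.

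COL4A1 fell furthest. Its signal was 823, 1224 and 1163 with 2DG and 135 with Met, 258 with Bu, 202 with Phen, 286 with Rot and 134 with AA. The difference was -2.64 ± 0.37, or 6.22-fold lower (adjusted p = 5.32e-05), and as a plain mean of arrays the second COL4A1 probe set gave -2.28 beside -2.67. COL4A2 was 1165, 1751 and 1467 with 2DG and 259, 486, 460, 563 and 244 with the inhibitors in the same order (-2.15 ± 0.33, 4.43-fold lower, adjusted p = 0.000118). All 5 values of each gene lay under all 6 HT-1080 controls, whose lowest were 682 and 1033, so for this pair the signal was below control as well as below 2DG. From their own controls, COL4A1 stood at -3.17, -2.27, -2.61, -1.93 and -2.99 and COL4A2 at -2.62, -1.73, -1.81, -1.28 and -2.47. COL4A5, another type IV chain, fell to between 4.34 and 34.8, under the floor, or at least 1.51-fold, and did not pass with the biguanides alone (adjusted p = 0.117).

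LOX, LAMB3, COL6A3 and 3 more laminin chains were among the other falls. LOX fell by 1.63 ± 0.26 (adjusted p = 0.000139): it was 331, 371, 346, 256 and 226, and the mean change from own control was 0.24 with inhibitors and 1.85 with 2DG alone. LAMB3 fell by 1.69 ± 0.24 (adjusted p = 6.48e-05), to 2983, 4426, 4361, 2874 and 1946, with a mean change from control of -0.18. COL6A3 fell by 2.12 ± 0.36 (adjusted p = 0.000275), to 759, 1663, 1472, 577 and 338, with a mean change from control of -0.79. LAMA5 (-1.42 ± 0.34) and LAMB2 (-1.29 ± 0.26) fell too, but neither passed with the biguanides alone (adjusted p = 0.169 and 0.0826). Their mean changes from control were -0.004 and -0.28 with inhibitors, against 1.27 and 0.81 with 2DG alone. LAMA1 was at least 1.82-fold lower, under the floor on all 5 inhibitor arrays. Its mean change from control was -0.58 with inhibitors and 0.90 with 2DG alone. It did not pass after quantile normalization or with the biguanides alone (adjusted p = 0.0569 and 0.057). COL18A1 did not pass (-0.27, adjusted p = 0.739).

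Among the enzymes and their chaperone, P4HA2, PLOD2, PLOD3, LOX and SERPINH1 fell and PLOD1 rose, while LOXL1, LOXL2, LOXL3 and LOXL4 did not pass (0.29, -0.38, -0.18 and 1.05, with adjusted p of 0.391, 0.146, 0.663 and 0.0621). P4HA2 differed by -1.29 ± 0.24 (adjusted p = 0.000512) and SERPINH1 stood 2.00-fold lower (SE 0.25 on the log2 scale, adjusted p = 0.0045), the latter from 543, 601 and 536 to 377, 236, 236, 239 and 311, all under the lowest HT-1080 control of 390. PLOD3 fell by 0.84 ± 0.17 and PLOD2 by 0.70 ± 0.17, while PLOD1 rose by 0.55 ± 0.19 (adjusted p = 0.0281). The PLOD2 call was lost without the own control as a block (adjusted p = 0.3) and with Rot and AA alone (0.0515). SERPINH1 and PLOD1 did not pass with the biguanides alone (adjusted p = 0.0645 and 0.432). Mean changes from control with inhibitors were -0.33 for P4HA2 and -0.03 for PLOD2, against 0.96 and 0.73 with 2DG alone. SPARC rose by 0.59 ± 0.13 (adjusted p = 0.00193), to 2635, 2619, 2845, 2416 and 2317, within or just above the control range. COL27A1, COL6A2, COL13A1, LAMC1 (-0.53) and LAMB1 (-0.45) made up the other falls. COL6A2 and COL13A1 did not pass with the biguanides alone (adjusted p = 0.13 and 0.0604), nor COL6A2 with Rot and AA alone (0.14). LAMB1 had a mean change from control of 0.08 with inhibitors and 0.61 with 2DG alone. Its call was lost with no filter, no intensity trend or no block (adjusted p = 0.0672, 0.0568 and 0.239), and with the biguanides alone (0.0625). After quantile normalization LAMB1 and LAMC1 did not pass (0.0544 and 0.0506), nor with Rot and AA alone (0.212 and 0.218). FN1 (0.38), COL1A1 (0.28) and COL6A1 (0.28) did not pass (adjusted p = 0.342, 0.525 and 0.531). In the plot of single arrays, all 5 inhibitor arrays lay beyond the range of the 2DG arrays for each of the 20 genes.

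**Figure D3:**
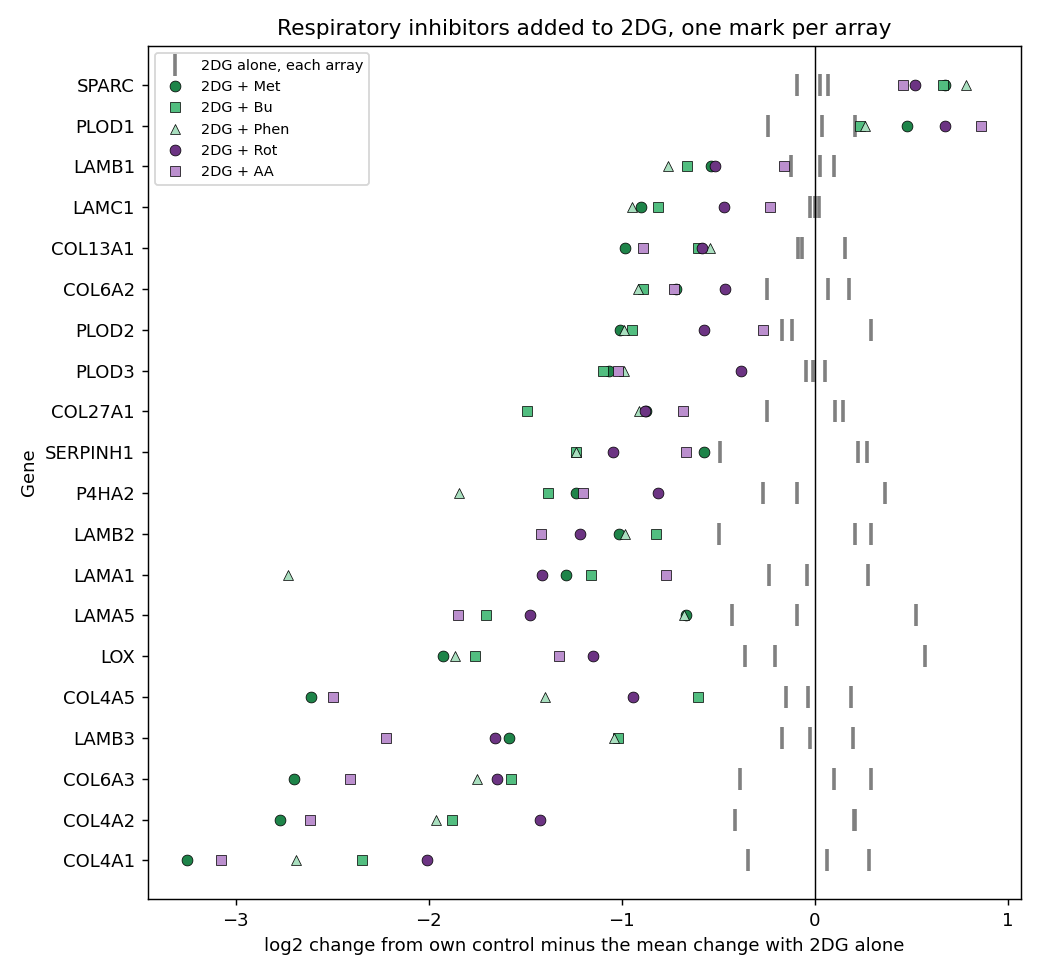
Change from own control minus the mean change with 2DG alone (log2), 1 mark per inhibitor array (Met, Bu, Phen, Rot, AA) and ticks for the 3 arrays with 2DG alone, for the 20 matrix genes that passed. COL4A1 lies between -3.25 and -2.01 on the 5 arrays, and SPARC and PLOD1 are the 2 genes to the right of zero.

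**Figure D4:**
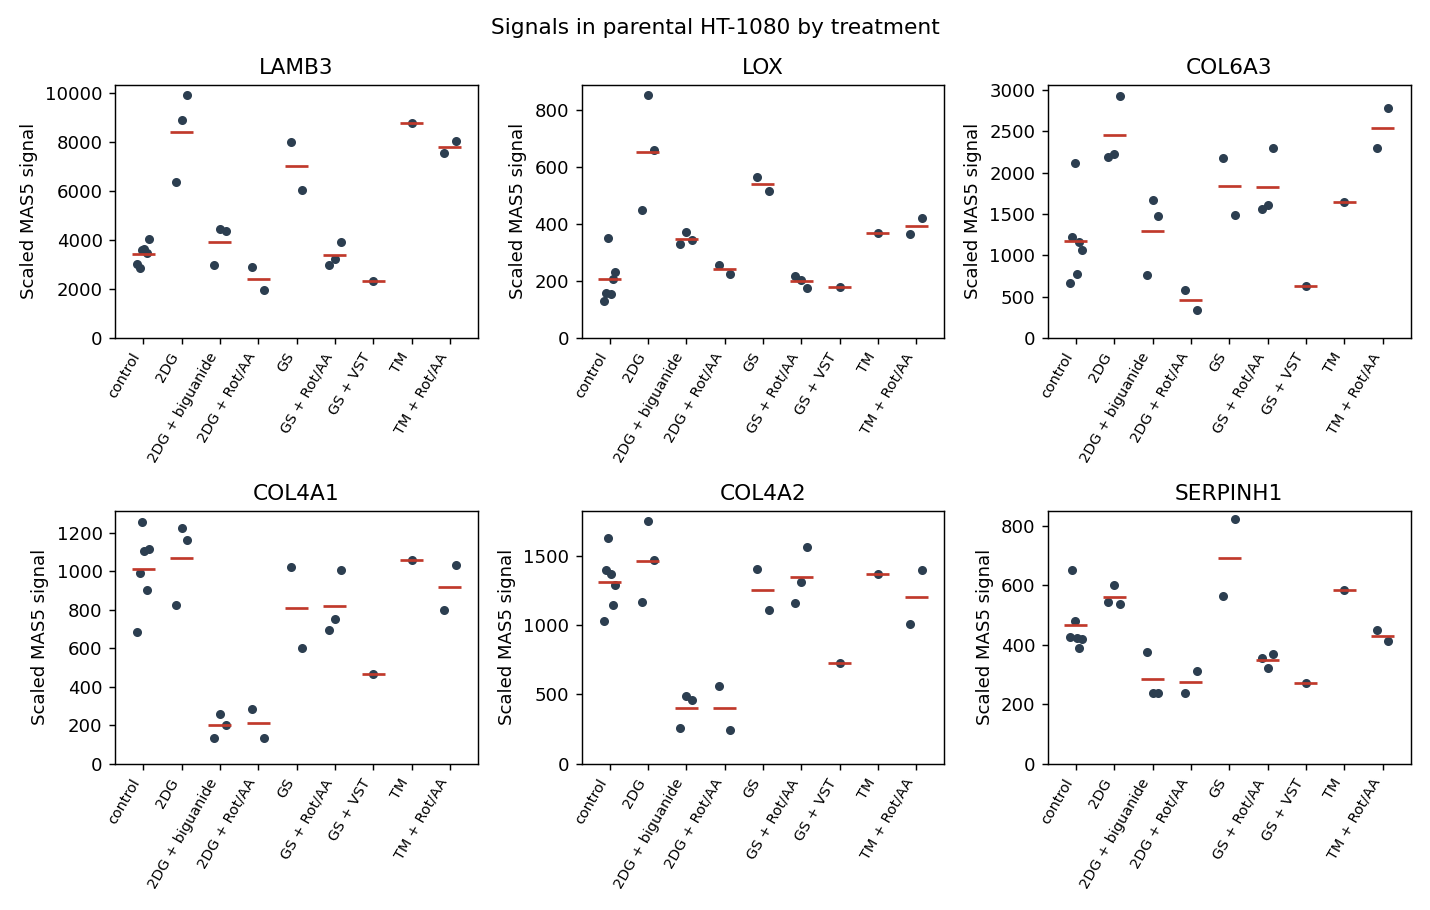
Scaled MAS5 signal of 6 matrix genes on parental HT-1080 arrays by treatment, 1 point per array with the group mean as a bar; the biguanides are Met, Bu and Phen, the 3 arrays of GS with Rot or AA include the 1 without floating cells, and 2DG with VST is not drawn. COL4A1 and COL4A2 are low with 2DG plus an inhibitor and stay near the controls with GS or TM plus Rot or AA, while LAMB3 and LOX are high with 2DG and GS.

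Genes outside the rule were counted beside the 22.1% of all genes lower and 12.9% higher in this comparison. Of 18 biosynthesis genes 7 fell and none rose, led by P3H4 (-2.58) and P3H1 (-2.34), with FKBP14 (-1.55) and P3H3 (-1.06) next. The P3H genes are named as members of the prolyl 3-hydroxylase family. Of 16 receptors 7 fell (ITGB3, -1.90, ITGAV, -1.59, ITGA2, -1.51 and ITGA5, -1.45) and 2 rose (CD44, 0.68, and ITGB1, 0.41). Of 19 proteases and inhibitors 6 fell, with MMP1 at -1.28, and none rose. Among 19 other matrix genes 5 fell (AGRN, -1.62) and 4 rose, with CCN2 at 2.42 and CCN1 at 2.22. HSPA5 was 1.10 to 1.75 above control on these 5 arrays and DDIT3 1.24 to 5.29, and the part of either in the falls was not tested.

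Without the second 2DG array 8 of the 36 genes passed, and without any other single array 16 to 21 did. COL4A1, COL4A2, COL6A3, LAMB3, LOX and P4HA2 passed in all 12 of these fits. In the scale as deposited, the median of all genes stood at -0.48 in this comparison, and 19 genes were lower and none higher, so the rises of SPARC and PLOD1 are relative to the common trimmed mean. The 3 biguanides alone gave 11 genes. On the array with 2DG and VST, which has no replicate, COL4A1 stood at -1.80 and COL4A2 at -1.11 from control, LAMB3 at -0.12 and LOX at 0.54.

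**Figure D5:**
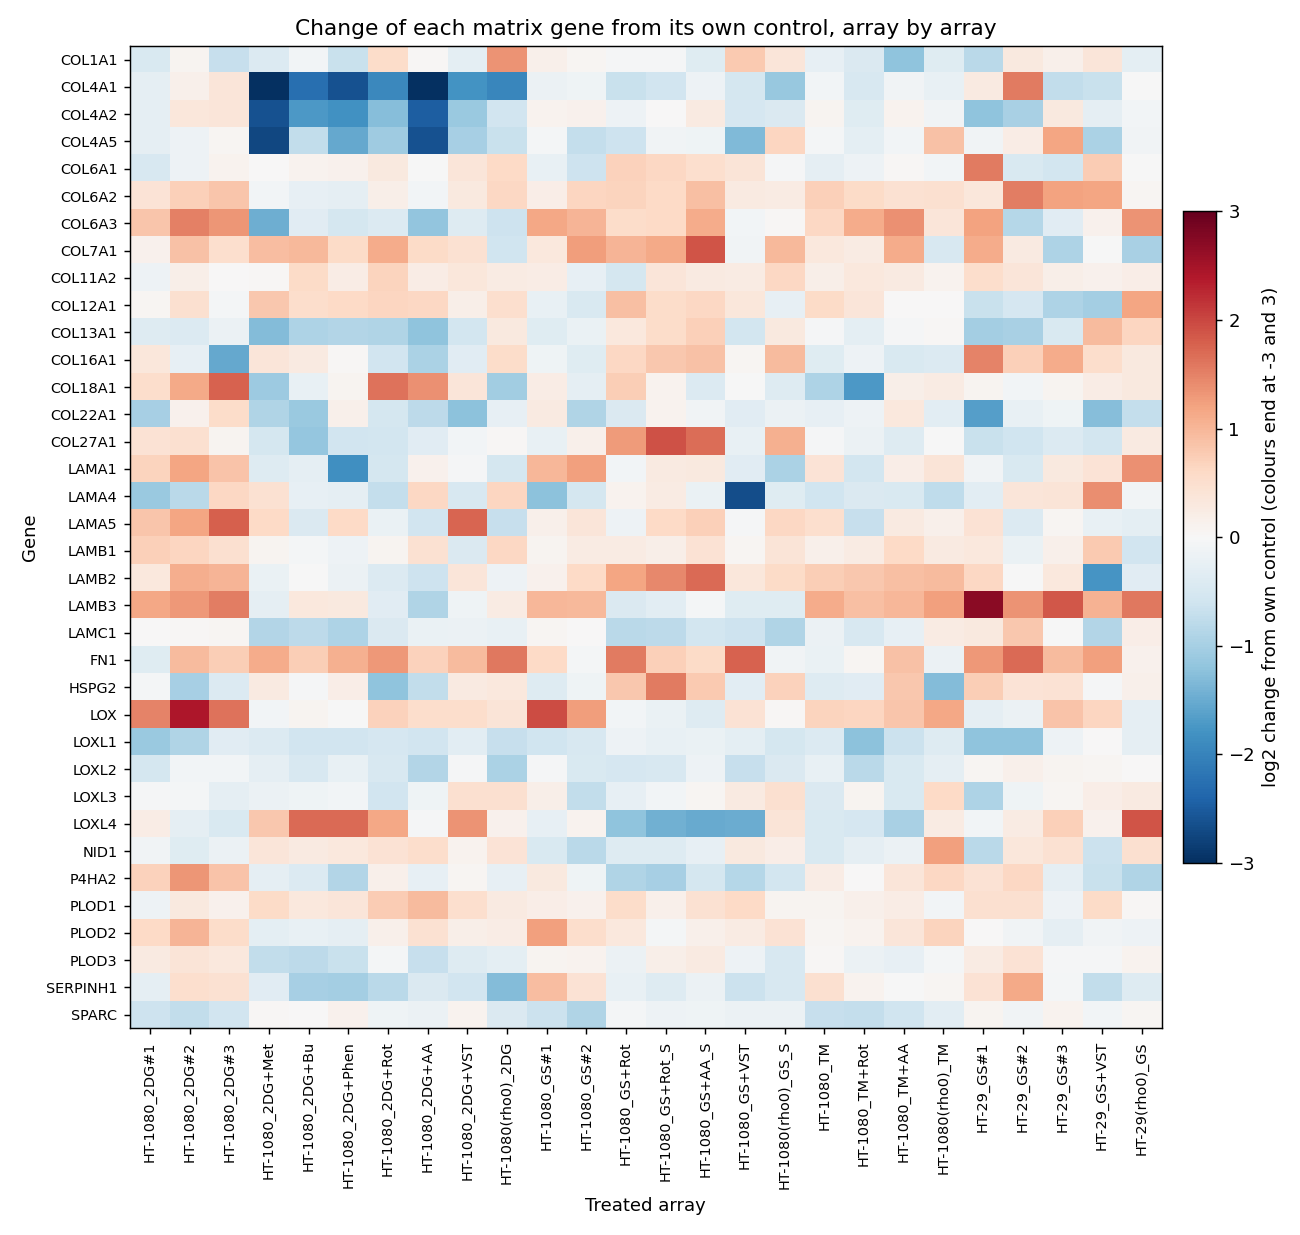
log2 change from own control (colours end at -3 and 3) of the 36 matrix genes that passed the filter, on each of the 26 treated arrays. COL4A1 and COL4A2 are blue on the arrays with 2DG plus an inhibitor and pale with 2DG alone, and LAMB3 is red with 2DG, GS and TM alone and on the HT-29 arrays.

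With rotenone or antimycin A added to GS, matrix genes were called in both directions. As with 2DG, LOX, LAMB3, SERPINH1, LAMC1 and PLOD2 were called lower and SPARC higher. COL27A1, LAMB2 and COL13A1 were called higher here and lower with 2DG. The inhibitor effects with GS and with 2DG were not compared by a test. Over the 2 arrays with floating cells, 7 genes were higher and 6 lower than with GS alone, beside 26.6% of all genes called (12.1% higher, 14.6% lower), with medians of 0.26 and -0.04. LOX fell by 1.73 ± 0.31 (adjusted p = 0.000466), to 203 with Rot and 175 with AA. LAMB3 fell by 1.17 ± 0.29 (adjusted p = 0.00557), to 3229 and 3921. SERPINH1 (-0.83 ± 0.30), LAMC1 (-0.68 ± 0.22) and PLOD2 (-0.66 ± 0.21) fell as well. The SERPINH1 call was lost with no filter, after quantile normalization and with no intensity trend (adjusted p = 0.0638, 0.0705 and 0.0729). Without the block, LAMB3, LAMC1 and PLOD2 did not pass (0.07, 0.319 and 0.321). LOXL4 was called lower under the floor, a call lost with no filter and without the block (adjusted p = 0.0595 and 0.176).

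COL27A1 rose most, from 133.1 and 137 with GS alone to 474 with Rot and 401 with AA (1.73 ± 0.26, 3.31-fold, adjusted p = 0.000133). It was 302 on the array of GS with Rot that did not include floating cells. LAMB2 rose by 1.08 ± 0.30, COL13A1 by 0.87 ± 0.21 and SPARC by 0.71 ± 0.16, and HSPG2 was called higher under the floor. COL6A1 (1.07 ± 0.38) and COL12A1 (0.98 ± 0.27) passed in the probe set used, but the means of all their probe sets gave 0.40 and 0.44 and did not pass (adjusted p = 0.444 and 0.33). The COL6A1 call was also lost with a smaller offset, with no filter and with no intensity trend (adjusted p = 0.107, 0.065 and 0.0625), and the COL12A1 call without the block (0.322). COL4A1 (-0.21 ± 0.44, adjusted p = 0.77) and COL4A2 (0.03 ± 0.40, adjusted p = 0.968) did not pass, nor did COL6A3 (-0.21 ± 0.43, adjusted p = 0.765), P4HA2 (-0.74, 0.0616), FN1 (0.55, 0.261), LAMB1 (0.10, 0.763) or COL1A1 (-0.27, 0.647). Whether the type IV pair responded differently to inhibitors with GS and with 2DG was not tested.

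Of the lists with GS and inhibitor, 4 of 18 biosynthesis genes fell (SEC24D, -1.71, MIA3, -1.48, P4HA1, -1.13 and P4HB, -0.86) and P3H3 rose (2.07). DDR2 fell by 2.63, and THBS1 rose by 2.82 and RECK by 1.81. DDIT3 was 0.28 and -0.23 from control on these 2 arrays against 4.71 and 2.58 with GS alone. It was 1.19 on the array of GS with Rot that did not include floating cells, which has the same control. On the 2 arrays with floating cells, these cells and the inhibitor cannot be told apart. Without the second GS array 3 of the 36 genes passed, without either of the inhibitor arrays 6 or 8, and without any of the other 3 arrays 7. COL27A1 and LOX passed in all 6 fits. In the deposited scale, where the median of all genes was -0.40, COL27A1 alone was higher and 7 genes were lower. Without the block by own control 7 passed.

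With TM, rotenone and antimycin A changed none of the 36 genes by the test. By limma 0 passed and 0 had an unadjusted p under 0.05, beside 0.742% of all genes called. LAMB3 was 7563 and 8052 against 8768 with TM alone, COL4A1 801 and 1035 against 1059, and SERPINH1 449 and 413 against 583. The largest difference toward lower values was LAMA5 (-0.71 ± 0.45, adjusted p = 0.539). With a single TM array as the reference these intervals are wide.

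With versipelostatin added to GS in 1 culture of each line, SERPINH1, LAMB3, LAMC1 and P4HA2 were among the genes lower in the mean of both lines. In that mean 6 of the 36 genes were lower and 1 higher than with GS alone, so 19.4% were called, below the 36.4% of all genes (22.1% lower, 14.3% higher), with medians of -0.24 and -0.05. SERPINH1 was 271 in HT-1080, against 822 and 563 with GS, and 362 in HT-29, against 833, 1121 and 885 (-1.34 ± 0.25, adjusted p = 0.0017). LAMB3 fell by 1.33 ± 0.21 (adjusted p = 0.000736), to 2327 and 393. LAMC1 (-0.93 ± 0.17), P4HA2 (-1.04 ± 0.22) and COL4A5 (-1.11 ± 0.34) fell in the mean of the lines, COL4A5 with its HT-29 arrays under the floor.

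LAMB2 and COL13A1 had opposite signs in the lines, a difference that was not tested. LAMB2 passed in the mean (-1.07 ± 0.27), but stood at -2.25 in HT-29, where its arrays were under the floor, and at 0.10 in HT-1080. COL13A1 passed at 0.83 ± 0.16 but stood at 1.88 in HT-29, under the floor, and at -0.22 in HT-1080, and the mean of all its probe sets gave 0.26 (adjusted p = 0.317). COL4A1 (-0.67), COL4A2 (0.02), COL1A1 (0.74), COL6A1 (0.30), LAMB1 (0.26), FN1 (0.63), SPARC (0.20), PLOD2 (-0.44) and LOX (-0.32) did not pass, with adjusted p from 0.0645 to 0.95. In HT-1080 alone, with 1 VST array, LOX stood at -1.34 (adjusted p = 0.0526). Of 18 biosynthesis genes 6 fell and none rose (FKBP14, -2.25, SEC24D, -2.23, P3H1, -1.09 and MIA3, -0.73). DDR2 (-1.51) and ITGB3 (-1.20) fell and RECK (1.36) and CCN1 (1.29) rose.

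Leaving out single GS arrays or controls gave 5 to 12 genes for VST. The count was 5 without the first HT-1080 GS array and 12 without the third HT-29 GS array or its control, and SERPINH1, LAMB3, LAMC1, LAMB2 and COL13A1 passed in all 10 fits. In the deposited scale 12 genes were lower and 1 higher.

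Under glucose stress, SERPINH1 and P4HA2 stood lower relative to control in rho0 cells than in parental cells. LOX and LAMB3 were also called lower, with calls that depended on the settings. The HT-1080(rho0) array with GS included floating cells, and the parental HT-1080 arrays with GS did not. HT-29(rho0) with GS was exposed for 14 h, and of the parental HT-29 arrays with GS only the third was, the others for 18 h. Under GS, loss of mitochondrial DNA therefore cannot be fully told apart from harvest in HT-1080 or exposure time in HT-29. Averaged over 2DG in HT-1080 and GS in both lines, the rho0 change minus the parental change was called lower for 4 genes and higher for 2, beside 18.6% of all genes called (10.6% lower, 8.01% higher), with medians of -0.14 and -0.03. SERPINH1 (-1.20 ± 0.26, adjusted p = 0.0105) stood at -1.30, -0.49 and -0.38 from control in HT-1080(rho0) with 2DG, HT-1080(rho0) with GS and HT-29(rho0) with GS. Its parental means in the same order were 0.23, 0.68 and 0.51. LOX (-1.14 ± 0.30, adjusted p = 0.0243) stood at 0.40, 0.04 and -0.28 in rho0 cells, with the HT-29 arrays under the floor. P4HA2 (-1.01 ± 0.23, adjusted p = 0.0126) stood at -0.24, -0.56 and -0.91 in them, below its own control each time.

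LAMB3 (-0.94 ± 0.22, adjusted p = 0.015) stood at 0.25, -0.37 and 1.57 in rho0 cells against 1.33, 0.99 and 1.97 in parental cells. COL13A1 (0.89 ± 0.17) and COL12A1 (0.78 ± 0.25, adjusted p = 0.0478) were called higher, with the HT-29 arrays of both under the floor. For COL12A1 the difference was 0.34 and 0.10 in HT-1080 with 2DG and GS (adjusted p = 0.685 and 0.93) and 1.89 in HT-29, and the mean of all its probe sets gave 0.25 (adjusted p = 0.594). COL4A1 missed the threshold (-1.13 ± 0.37, adjusted p = 0.0529). With 2DG it stood at -1.96 in HT-1080(rho0), where its signal went from 1231 to 313, while COL4A2 stood at -0.58, from 1943 to 1303. COL4A2 (-0.24), COL1A1 (0.60), COL6A1 (0.32), LAMB1 (-0.14), LAMC1 (-0.45), FN1 (-0.14), SPARC (0.29) and PLOD2 (-0.32) did not pass in the mean, with adjusted p from 0.105 to 0.793.

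With TM, HT-1080(rho0) had LAMB3 at 1.24, LOX at 1.16 and SERPINH1 at 0.06 from control, against 1.11, 0.66 and 0.47 on the parental TM array, with no test of the difference. Of 18 biosynthesis genes 6 were lower and none higher in the rho0 glucose stress comparison (FKBP14, -1.91, SEC24D, -1.87, P3H1, -1.36 and MIA3, -1.32). HSPA5 was 0.86, 0.77 and 0.24 above control on the 3 rho0 arrays with glucose stress, against parental values of 0.70 to 1.56, and its part in these differences was not tested. Each rho0 group is 1 array, and taken singly the 3 comparisons called 1 gene (LAMA5, with 2DG), 0 and 0. Leaving out single parental arrays gave 4 to 9 genes, 9 without the third HT-29 GS array or its control. COL13A1, LAMB3, P4HA2 and SERPINH1 passed in all 16 fits. Without the block by own control 2 passed, and in the deposited scale 9 were lower and 1 higher. The LOX and LAMB3 calls were lost without the block and with no intensity trend, and the LOX call also with a smaller offset. In HT-29 alone the difference was -0.42 for LOX and -0.39 for LAMB3, beside -1.17 for P4HA2 and -0.89 for SERPINH1.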

How the data were processed

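Total RNA was hybridized to 38 Affymetrix U133 Plus 2.0 arrays. The authors deposited MAS5 signals, linear intensity values, per the submitters' processing notes, and the target of their scaling is not given in the sources used here. The deposited 2% trimmed means ran from 89.5 to 136, and this spread followed the design. They were 89.5 to 102 wherever an inhibitor, VST or loss of mitochondrial DNA was combined with glucose stress (2DG, GS). All remaining arrays, those with TM included, lay between 109.5 and 136. Before scaling, the inhibitor, VST and rho0 comparisons under glucose stress therefore set dimmer arrays against brighter ones. The part of this gap in their results was not tested. Each array was scaled to a trimmed mean of 113.7, and log2(signal + 5% of it) was tested. Probe sets needed 40% of it on 2 arrays (21492 passed), and 232 of 54675 with a missing value were dropped. Of these, 41097 carry 1 symbol, 1801 several and 11777 none, and the brightest per gene was used. limma 3.58.1 in R 4.3.3 fitted all arrays with an intensity trend and the own control as a fixed block (5 residual degrees of freedom, or 11 where inhibitors shared a coefficient), and the 12 controls separately (8). The block comes from the descriptions, which name 1 control per treated array. As a check, each replicate's deviation correlated with its own control's at 0.30 to 0.63 and more weakly with every other. The 2 HT-1080 GS arrays mirror each other in this check (0.38 with the own control and -0.38 with the other). They therefore count as 1 value. Genes past an adjusted p of 0.05 were named, up to 8 each way with the largest change, plus 12 genes in every comparison, and up to 4 per list. The genes, lists and comparisons were chosen with earlier results of these data known. The self-test used simulated data. The alternatives on single rho0 and single VST comparisons were added after seeing the data.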

Additional observations from a re-analysis of the deposited data

Results flagged for a closer look

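Of 36 genes examined in the 6 untreated HT-1080 arrays, 2 had 1 array set apart from the others by more than Dixon's 95% limit, where chance alone sets apart about 1 group in 20. LOXL1 was 145 in the fifth control and 228 to 290 in the others, and that control is the reference of the third 2DG array. HSPG2 was 15.6 in the fourth control and 2.11 to 5.60 in the others, all under the signal floor.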

How the results depend on the processing

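Counts below are of the 36 genes. Leaving out 1 array at a time gave 26 to 30 for the parental lines, 4 to 8 for the rho0 controls, 2 to 3 for 2DG, 0 to 0 for GS in HT-1080, 3 to 13 for GS in HT-29, 0 to 5 for the line difference in GS, 0 to 0 for TM, 8 to 21 for inhibitors with 2DG, 3 to 8 for inhibitors with GS, 0 to 0 for inhibitors with TM, 5 to 12 for VST and 4 to 9 for rho0 under glucose stress. The VST arrays, the TM array, the rho0 treated arrays and, under stress, the rho0 controls could not be left out singly. A stricter filter gave 4 for the rho0 controls. Arrays of the same line alone gave 15 for 2DG, 3 for GS in HT-29 and 2 for TM. Without the replicate block the counts were 3 for GS in HT-1080, 2 for GS in HT-29, 1 for the line difference, 7 for inhibitors with GS and 2 for rho0 under stress, and for the other comparisons with a block they stayed within 1.5 times. No intensity trend gave 3 for GS in HT-1080, and an offset of 15% gave 5 for GS in HT-29. The deposited scale gave 8 for inhibitors with GS, 13 for VST and 10 for rho0 under stress. Biguanides alone gave 11 with 2DG. The single rho0 comparisons gave 1, 0 and 0. The mean of all probe sets turned COL1A1 between the lines to 0.72 and COL12A1 with GS in HT-29 to 0.12, and VST in HT-1080 alone turned COL13A1 to -0.22 and LAMB2 to 0.10. In these 4 cases the cause was not tested. Of 90 named values past the threshold, 87 kept their direction under every alternative run, and 1361 of 1678 alternative values passed it. Signal near background limits 15 genes in HT-29.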
